A study of Mus musculus with 6 samples.

Results

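The miR-29 family was followed in small RNA libraries of mouse brain, after a sham operation and after global cerebral ischemia followed by reperfusion (I/R). All rows named miR-29a, miR-29b or miR-29c in the 6 count tables were taken, and where a name was repeated, only its row of highest total was used. That gave 7 rows and 6 mature miRNAs, of 622 mature names in all: the guide strands mmu-miR-29a-3p, mmu-miR-29b-3p and mmu-miR-29c-3p (mmu- marks mouse and is left out from here on), and the passenger strands miR-29a-5p, miR-29b-2-5p and miR-29c-5p. The mice were C57BL/6J, an inbred strain, with no transgene named. The sham group had no treatment listed and held libraries 3, 6 and 7. The I/R group held libraries 1, 2 and 3, from mice whose carotid arteries were tied on both sides for 20 minutes. Age, brain region and reperfusion time do not appear in the sources used here. The labels do not say whether every library is its own animal, and the p-values cover only the spread between these samples.

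miR-29 guides pair through their seed, the bases that decide most of a miRNA's target choice, with sites in the 3′ untranslated regions of mRNAs. They are known for repressing collagens, elastin and other matrix genes, and enzymes of DNA methylation and demethylation. In mouse neurons, miR-29 rises as the cells mature and holds down BH3-only genes, the triggers of the mitochondrial death pathway. It is also abundant in astrocytes, where it is known to act on the BH3-only gene Bbc3 (Puma). A passenger strand is the other arm of the hairpin, which is mostly degraded after the guide has been loaded into an Argonaute protein.

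The guide sequences are shown because they decide which reads the counts can tell apart. The capitals mark the seed (bases 2 to 8, counted from the 5′ end), and the sequences are those of RefSeq on GRCm38.p6, which held all 6 members.
miR-29a-3p: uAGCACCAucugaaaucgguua
miR-29b-3p: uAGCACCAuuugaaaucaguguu
miR-29c-3p: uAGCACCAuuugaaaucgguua
miR-29a-5p: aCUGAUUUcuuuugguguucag
miR-29b-2-5p: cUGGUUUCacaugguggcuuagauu
miR-29c-5p: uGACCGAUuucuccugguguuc

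The 3 guides share the seed AGCACCA, which no other of 1679 mature mouse names in the RefSeq table has. The passenger strands have 3 different seeds. From miR-29a-3p to miR-29c-3p there is 1 substitution, C10U. miR-29b-3p carries C10U, G18A, U21G and A22U against miR-29a-3p over the 22 positions that both have, and is 1 base longer. The sources used here do not say whether the authors' counting allowed mismatches, so the split of reads between miR-29a-3p and miR-29c-3p rests on 1 base. miR-29b-3p ends in AGUGUU, a motif known from human cells to send miR-29b to the nucleus. Searched on the miRNA strand only, AGUGUU was the 3′ end of 2 of 1679 mature names (0.119%), the other being miR-92b-5p.

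The family comes from 4 hairpins in 2 clusters. Mir29a (chr6:31062660-31062747) and Mir29b-1 (chr6:31063023-31063093) lie on the minus strand within 434 bp, outside any protein-coding gene in GENCODE vM21. Mir29b-1 overlaps the lincRNA Gm27019 by 2 bp. Mir29b-2 (chr1:195037040-195037120) and Mir29c (chr1:195037547-195037634) lie on the plus strand within 595 bp, in exon sequence of their noncoding host transcript A330023F24Rik and opposite exon sequence of the complement regulator gene Cd46. In the hairpins of miR-29a and miR-29c, shown because both arms of each were counted, the capitals mark the 5p and then the 3p arm.
Mir29a: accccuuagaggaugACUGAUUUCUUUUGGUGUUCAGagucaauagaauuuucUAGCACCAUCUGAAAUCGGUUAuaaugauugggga
Mir29c: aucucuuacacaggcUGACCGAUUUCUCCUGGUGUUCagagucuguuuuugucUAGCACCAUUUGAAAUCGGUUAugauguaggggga

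miR-29b-3p is the same sequence from both clusters and was listed on 2 rows, which differed by at most 3 counts in any library (9239 and 9238 in sham library 3). Its reads therefore cannot be assigned to chromosome 6 or 1. Its passenger strand miR-29b-2-5p comes from chromosome 1 alone. The chromosome 6 counterpart miR-29b-1-5p was not among the rows that the name rule found, so it has no values here.

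Matches to the seed were looked up in genes of the kinds that the family is best known to act on. This is a description of sequence, since no mRNA was measured. The 7 letters TGGTGCT, and the 8 letters TGGTGCTA that contain them, were searched on the mRNA strand of the longest annotated 3′ untranslated region of each gene (GENCODE vM21, GRCm38). Of 21020 genes with such a region, 2755 (13.1%) held the 7 letters and 599 (2.85%) the 8 letters. Of 8 BH3-only genes, 4 held the 7 letters: Hrk 3 times, Bbc3 2 times, and Bmf and Bcl2l11 (Bim) once each. Bid, Bad, Pmaip1 and Bik held none. Of 10 matrix genes, 8 held the 7 letters and 7 the 8 letters, among them Col1a1, Col3a1 and Col4a1, which encode collagen chains, and Eln, which encodes elastin. Col1a2 and Sparc held none. These genes were chosen from kinds with known miR-29 targets, and not each of them is a known target. Some have long regions, so their shares are not independent evidence. The sites of 6 of them are shown with the match in capitals, as the pairing partners of the seed.
Bbc3 (chr7:16317529-16317558, plus strand): caccatctcaggaaaggctgcTGGTGCTgg
Bmf (chr2:118531354-118531383, minus strand): atgtatgtaaggaaagacatTGGTGCTAta
Hrk (chr5:118185082-118185111, plus strand): tgcttcacttcacagtttctTGGTGCTAag
Col1a1 (chr11:94952518-94952547, plus strand): gtggggtgggaaggaatttcTGGTGCTAta
Col3a1 (chr1:45348962-45348991, plus strand): ccaacttcaaaatgtctcaaTGGTGCTAta
Eln (chr5:134703734-134703763, minus strand): actcgcgacctcatcaacgtTGGTGCTAct

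Libraries held 1423905 to 2023475 counts over the 622 names, and 599 to 612 names were detected in each. The neuronal miRNAs miR-124-3p and miR-9-5p, at sham means of 18279 and 69858 CPM (counts scaled to a common library size), fitted the label of brain tissue. Of the I/R libraries, number 2 was the closest to sham. Over the 440 miRNAs with enough counts to test, its median absolute log2 difference from the sham mean was 0.21, against 0.54 for library 1 and 0.34 for library 3. In bulk tissue, fewer cells of a type and less miRNA per cell cannot be told apart.

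Of the guides, miR-29b-3p was lower in all 3 I/R libraries, miR-29a-3p was lower in 2 of them, and miR-29c-3p had nearly the same mean in both groups. The miR-29c passenger strand had the largest difference of the family, at 0.547 of its sham mean. None of the 6 members, all of which were tested, passed an adjusted p of 0.05. This was by edgeR's quasi-likelihood test on all 440 miRNAs with Benjamini-Hochberg adjustment, where 10 miRNAs (2.27%) passed, all higher, and 0% passed as lower. Those called include all 8 tested members of the epithelial list (miR-183 and miR-200 groups), whose summed level was 1982 to 7191 CPM in sham and 22069 to 50923 CPM in the I/R libraries. With these groups left out of the scaling 0 of the 6 members passed, and the log2 fold changes of 5 of them stayed below 0. DESeq2, which called 26 of 440 (5.91%), and limma-voom, which called 10 (2.27%), also called 0 of the 6. At an unadjusted p under 0.05 edgeR gave 1 member, miR-29c-5p, lower, against 28 of 440 (6.36%) lower in all.

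In sham brain the guides were counted in the order miR-29a-3p, miR-29b-3p and miR-29c-3p, with no overlap between neighbours. They held places 24, 36 and 57 among the 622 names by mean CPM over the 6 libraries. Mature miRNAs are nearly equal in length, so CPM serves as a level per molecule, but adapter ligation favours some ends and the order may partly be that of the ligation, which was not tested. The guides exceeded their passenger strands by far, with 9260 ± 199 CPM for miR-29a-3p against 57.0 ± 4.13 CPM for miR-29a-5p in sham (SD, n = 3). In I/R brain the order of the guides was the same, again without overlap. Among the passenger strands miR-29c-5p stood above miR-29a-5p in each sham library, while after I/R their ranges overlapped.

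**Figure D1:**
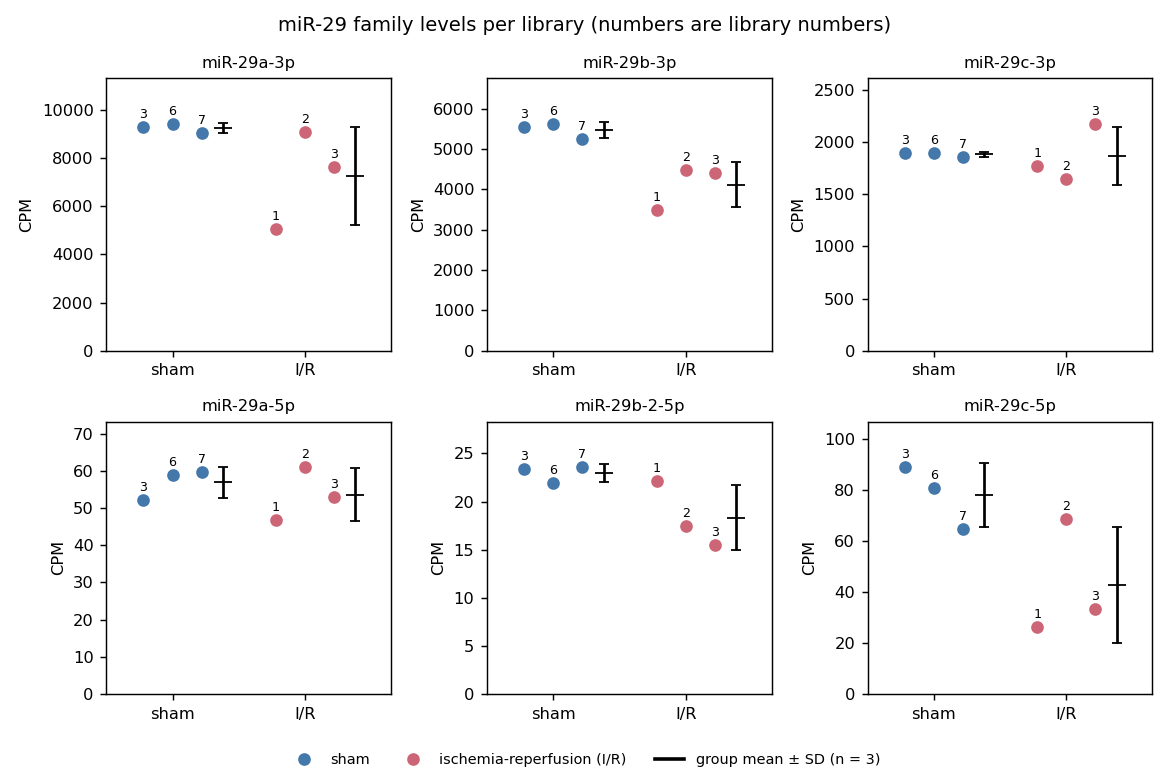
Level of each miR-29 family member in CPM (linear axes from 0), by library; dots are single libraries with their numbers, and bars are group means ± SD of 3 libraries. miR-29b-3p lies between 3482 and 4474 CPM after I/R, below all sham values, while miR-29c-5p is at 26.1 and 33.3 CPM in libraries 1 and 3 and at 68.6 CPM in library 2.

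miR-29a-3p, the most abundant guide and the one known in astrocytes for acting on Bbc3, measured 9309, 9431 and 9041 CPM in the sham libraries 3, 6, 7. It measured 5052, 9071 and 7651 CPM in I/R libraries 1, 2 and 3. Library 1 stood lowest, library 3 was below the sham range, and library 2 lay within it, so that the groups overlapped. The means were 9260 ± 199 and 7258 ± 2038 CPM (SD, n = 3 each), a log2 fold change of −0.35 ± 0.24 (SE), which did not pass (adjusted p = 0.447, edgeR, Benjamini-Hochberg). Without I/R library 1 the log2 fold change was −0.13, and without library 2 it was −0.54 (adjusted p = 0.0951, edgeR, Benjamini-Hochberg).

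miR-29b-3p, the guide known in mouse neurons for restraining BH3-only genes, measured 5550, 5625 and 5252 CPM in the sham libraries 3, 6, 7. It measured 3482, 4474 and 4403 CPM in I/R libraries 1, 2 and 3. All 3 I/R values lay below all 3 sham values, as they did for 51 of 440 miRNAs (11.6%). The means were 5476 ± 198 and 4120 ± 554 CPM (SD, n = 3 each), 0.752 of the sham level. The log2 fold change of −0.41 ± 0.19 (SE) did not pass (adjusted p = 0.294, edgeR, Benjamini-Hochberg). By exact permutation, two-sided, p was 0.1, which is the floor for 3 against 3. Leaving out each library in turn, its log2 fold change ranged from −0.48 to −0.29.

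miR-29c-3p, the guide from the chromosome 1 cluster alone, measured 1893, 1897 and 1854 CPM in the sham libraries 3, 6, 7. It measured 1773, 1648 and 2175 CPM in I/R libraries 1, 2 and 3. Libraries 1 and 2 were below the sham range and library 3 above it. The means were 1881 ± 23.7 and 1865 ± 275 CPM (SD, n = 3 each). The log2 fold change of −0.012 ± 0.18 (SE; adjusted p = 0.971, edgeR, Benjamini-Hochberg) turned positive under 9 of 12 other settings, at most to 0.055, so no direction can be given.

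**Figure D2:**
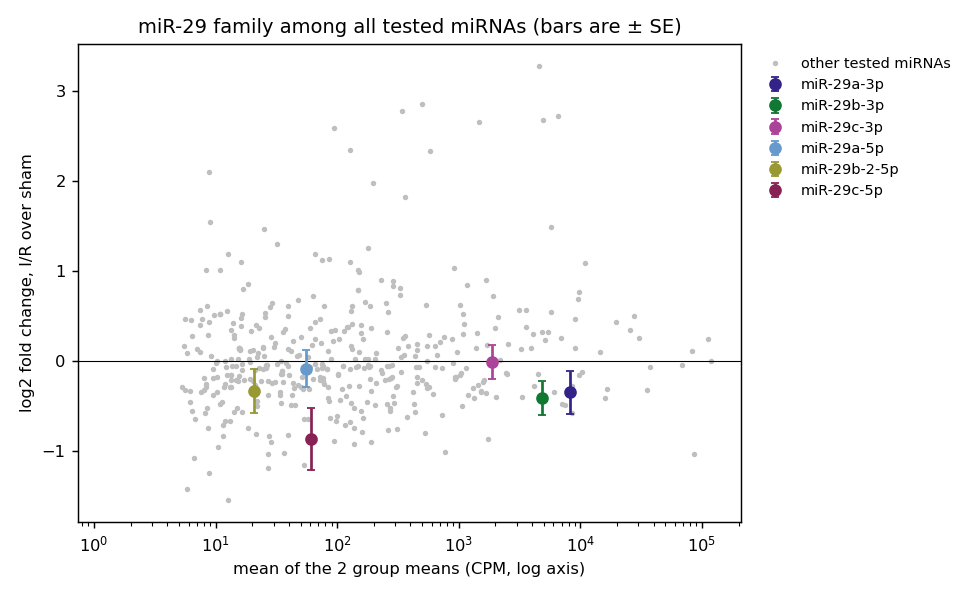
Log2 fold change of each tested miRNA (I/R over sham) against its mean level in CPM on a log axis; grey dots are the other tested miRNAs, and coloured dots with bars are the miR-29 members ± SE. All 6 members lie below 0, from −0.012 for miR-29c-3p to −0.87 for miR-29c-5p, among many other miRNAs of like size of change.

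Each of the 6 members had a log2 fold change below 0, with a median of −0.34. Over all 440 tested miRNAs 243 (55.2%) were below 0, with a median of −0.054. miR-29a-5p flipped to 0.013 without I/R library 1, and miR-29c-3p flipped as above. Members from 1 hairpin or cluster share their transcript and are not independent of one another.

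The passenger strands had far fewer counts, with 28 to 41 per library for miR-29b-2-5p, 70 to 110 for miR-29a-5p and 39 to 148 for miR-29c-5p. miR-29c-5p measured 88.9, 80.8 and 64.5 CPM in the sham libraries 3, 6, 7 and 26.1, 68.6 and 33.3 CPM in I/R libraries 1, 2 and 3. Libraries 1 and 3 stood well below sham, while library 2 lay within the sham range. The log2 fold change was −0.87 ± 0.35 (SE), from 78.0 ± 12.5 to 42.7 ± 22.7 CPM (SD, n = 3 each), with an adjusted p of 0.251 (edgeR, Benjamini-Hochberg).

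Without I/R library 2 the log2 fold change of miR-29c-5p was −1.38 and passed (adjusted p = 0.00696, edgeR, Benjamini-Hochberg), the 1 member that did. In that fit 100 of 456 miRNAs passed (21.9%), 42 of them lower (9.21%). Leaving out the library nearest to sham favours calls. Without library 1 the log2 fold change was −0.62 and did not pass.

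miR-29a-5p, from the chromosome 6 cluster, measured 52.3, 58.9 and 59.8 CPM in the sham libraries 3, 6, 7 and 46.9, 61.1 and 53.1 CPM in I/R libraries 1, 2 and 3, with overlap. Its log2 fold change was −0.086 ± 0.21 (SE; adjusted p = 0.842, edgeR, Benjamini-Hochberg). miR-29b-2-5p, made beside miR-29c on chromosome 1, measured 23.4, 21.9 and 23.6 CPM in sham and 22.1, 17.5 and 15.4 CPM after I/R. Library 1 overlapped sham, and libraries 2 and 3 were lower. The log2 fold change was −0.34 ± 0.25 (SE; adjusted p = 0.489, edgeR, Benjamini-Hochberg), and −0.16 without library 3. miR-29c-5p and miR-29b-2-5p come from hairpins of 1 cluster, but library 1 was the lowest of its group for the former and the highest for the latter. With 33, 28 and 32 counts in I/R libraries 1, 2 and 3, the order for miR-29b-2-5p lies within counting noise.

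The 3 sham libraries were close to one another for the guides. The coefficient of variation was 2.15% for miR-29a-3p, 3.61% for miR-29b-3p and 1.26% for miR-29c-3p, the last below the 1.81% that counting noise alone gives. Among the 82 tested miRNAs with a mean of at least 1000 CPM, whose median coefficient of variation in sham was 9.13%, miR-29c-3p had the lowest, miR-29a-3p the third lowest and miR-29b-3p place 12. After I/R the coefficients were 28.1%, 13.4% and 14.8% for miR-29a-3p, miR-29b-3p and miR-29c-3p, against a median of 24.4%, and held places 53, 15 and 19. The coefficient was higher after I/R than in sham for 71 of these 82 miRNAs, so wider spread was common to most of them. These values rest on 3 libraries a group and were not tested.

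**Figure D3:**
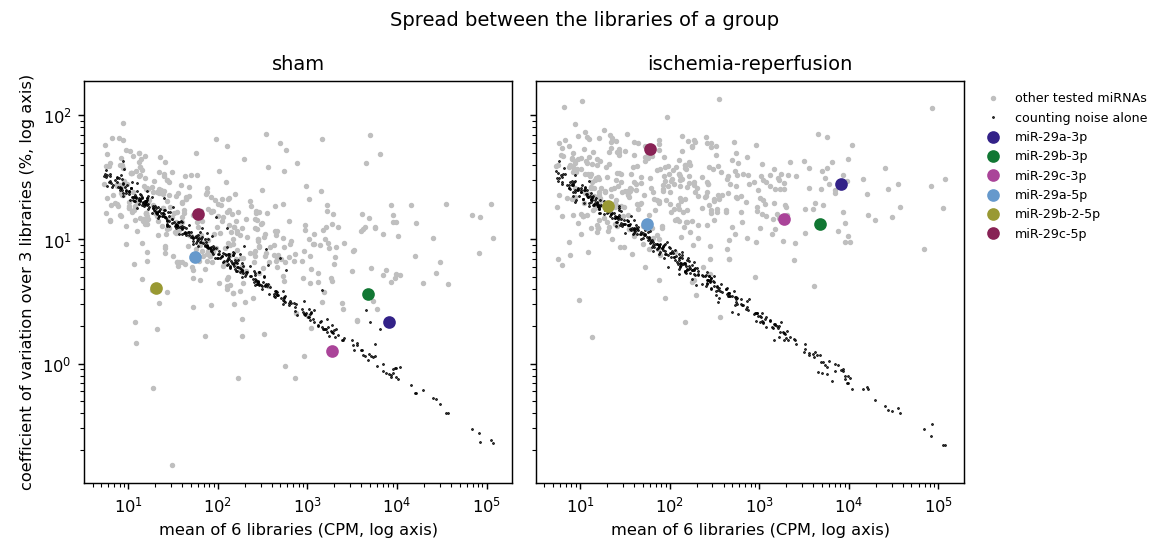
Coefficient of variation over the 3 libraries of a group (percent, log axis) against mean CPM (log axis), for sham at left and I/R at right; grey dots are the other tested miRNAs, black dots show counting noise alone and coloured dots the miR-29 members. The guides sit at 1.26% to 3.61% in sham, at the low edge, and at 13.4% to 28.1% after I/R.

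Together the 3 guides held 1.70%, 1.74% and 1.60% of counts in the sham libraries 3, 6, 7 and 0.987%, 1.50% and 1.46% in I/R libraries 1, 2 and 3. All 3 I/R values were below the sham range, with library 1 the lowest. The pool is mostly miR-29a-3p and miR-29b-3p, so this repeats their values. Shares of all counts also move with large changes in other miRNAs, and no background was worked out for such sums. Within this pool the sham libraries had nearly the same make-up. miR-29c-3p held 11.3%, 11.2% and 11.5% of the guide counts in sham. It held 17.2%, 10.8% and 15.3% in I/R libraries 1, 2 and 3, so that libraries 1 and 3 were above sham and library 2 below. miR-29a-3p held 55.6%, 55.6% and 56.0% in sham and 49.0%, 59.7% and 53.8% after I/R, the reverse order of the libraries.

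**Figure D4:**
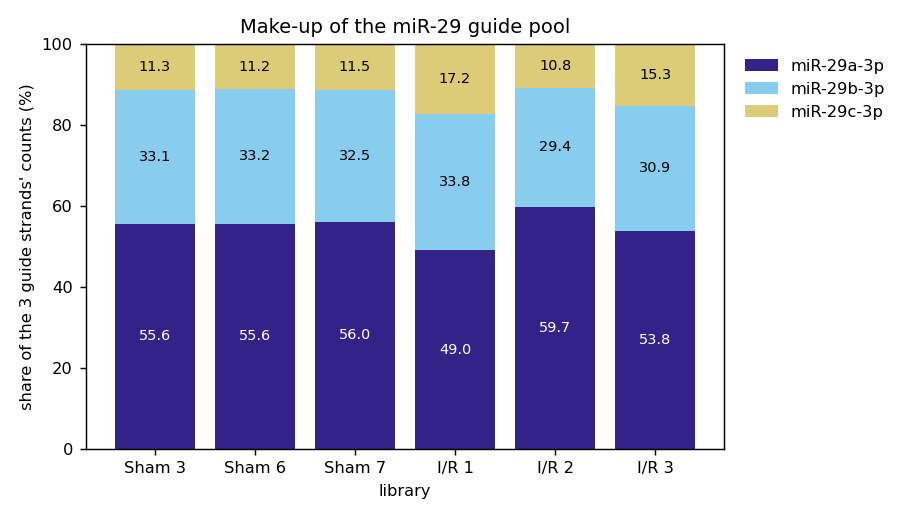
Share of the counts of the 3 guide strands (percent, stacked to 100) held by each guide in each library; I/R is ischemia and reperfusion. The 3 sham bars are nearly alike, with miR-29c-3p at 11.2% to 11.5%, and the I/R bars differ, with miR-29c-3p at 10.8% to 17.2%.

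Ratios between members within a library do not depend on the scaling of libraries, and 8 of them were compared by two-sided exact permutation tests with Benjamini-Hochberg adjustment over the 8. By exact permutation none could go below p = 0.1, so none could pass. There were 2.93, 2.97 and 2.83 counts of miR-29b-3p per count of miR-29c-3p in the sham libraries 3, 6, 7, and 1.96, 2.71 and 2.02 in I/R libraries 1, 2 and 3. All 3 I/R values were below sham, with library 2 nearest. How often ratios between other pairs of miRNAs do so was not worked out. The log2 ratio differed by −0.40 ± 0.15 (SE) between the groups (exact permutation p = 0.1, adjusted p = 0.4).

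The ratio of miR-29a-3p to miR-29c-3p, guides that tell the 2 clusters apart, was 4.92, 4.97 and 4.88 in sham. It was 2.85, 5.50 and 3.52 in I/R libraries 1, 2 and 3, on both sides of sham. The log2 difference of −0.37 ± 0.28 (SE) came with an exact permutation p of 0.4 (adjusted p = 0.533). It was −0.64 without I/R library 2 and −0.16 without library 1. The passenger strands also tell the clusters apart. Counts of miR-29a-5p per count of miR-29c-5p were 0.589, 0.730 and 0.929 in sham and 1.78, 0.891 and 1.59 after I/R (exact permutation p = 0.2, adjusted p = 0.4). The other passenger of the chromosome 1 cluster gave a smaller log2 difference. For miR-29a-5p over miR-29b-2-5p it was 0.25 ± 0.25 (SE), against 0.89 ± 0.36 for miR-29a-5p over miR-29c-5p. The former was 0.48 without I/R library 1, 0.12 without library 2 and 0.13 without library 3.

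The arms of the Mir29c hairpin stood further apart in I/R libraries 1 and 3 than in sham. There were 21.2, 23.4 and 28.6 counts of miR-29c-3p per count of miR-29c-5p in the sham libraries 3, 6, 7. There were 67.1, 23.9 and 64.9 in I/R libraries 1, 2 and 3, so that library 2 lay within the sham range and the other two far above it. The log2 ratio differed by 0.96 ± 0.50 (SE; exact permutation p = 0.2, adjusted p = 0.4), and by 1.44 without library 2. In a limma fit over the arm ratios of all 103 names with both arms tested, chosen after seeing the data, this difference had place 15 by size (unadjusted p = 0.0366, adjusted p = 0.330 by limma with Benjamini-Hochberg). That fit called 0 of 103 (0%), with 13 (12.6%) at an unadjusted p under 0.05.

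In the Mir29a hairpin the arm ratio was lower than in sham. There were 177, 159 and 150 counts of miR-29a-3p per count of miR-29a-5p in the sham libraries 3, 6, 7 and 107, 148 and 143 in I/R libraries 1, 2 and 3. All 3 I/R values were below sham, with library 1 far below and the others close to it. The arm ratios of 16 of the 103 names (15.5%) did not overlap between the groups. The log2 difference was −0.30 ± 0.16 (SE; exact permutation p = 0.1, adjusted p = 0.4), and −0.15 without library 1. In the limma fit over the 103 names it had place 62 by size (unadjusted p = 0.293, adjusted p = 0.559 by limma with Benjamini-Hochberg). The ratios of miR-29a-3p to miR-29b-3p and of miR-29b-3p to miR-29b-2-5p differed by 0.026 ± 0.14 and −0.082 ± 0.27 (log2, SE), with overlap.

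**Figure D5:**
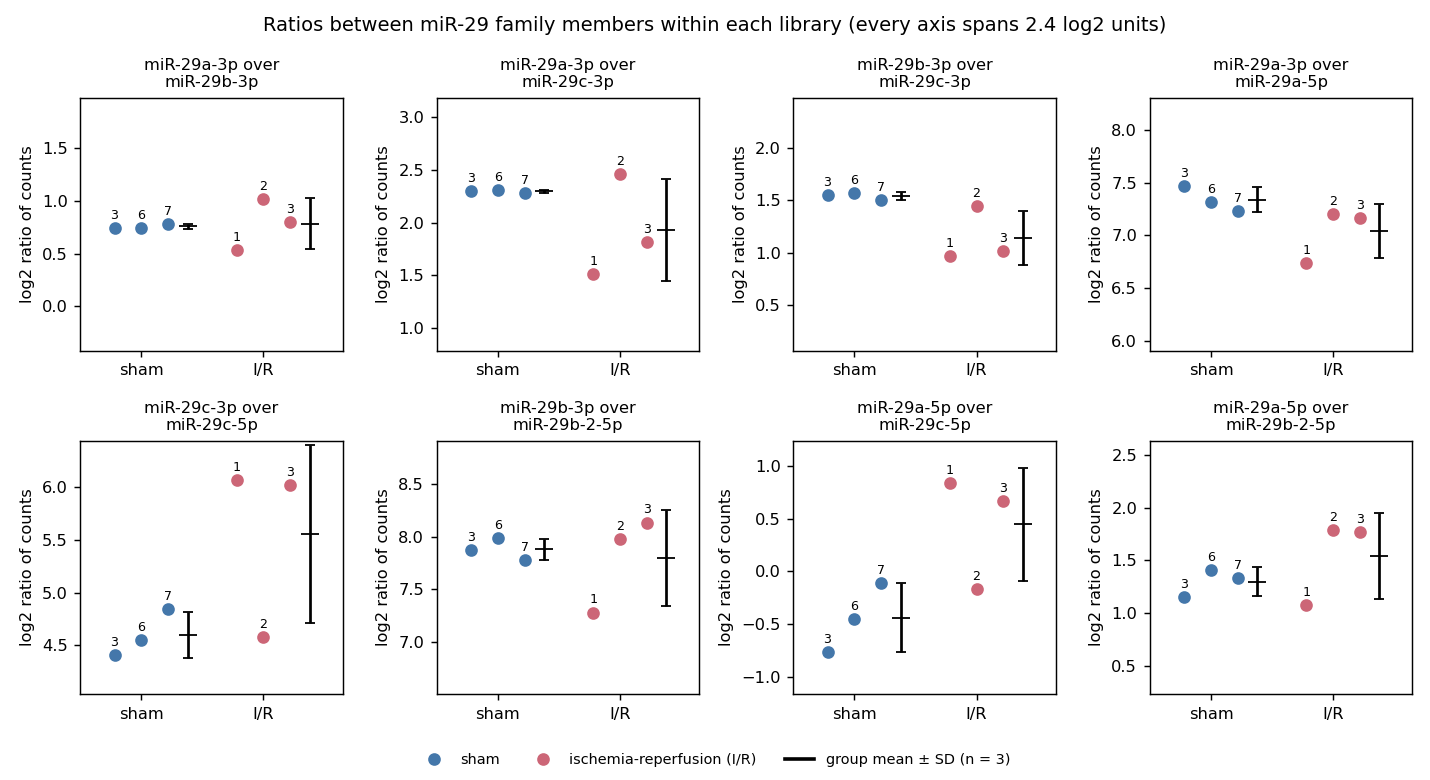
Log2 ratios of counts between pairs of miR-29 family members within each library, on axes of equal span; dots are libraries with their numbers and bars are group means ± SD of 3 libraries. For miR-29c-3p over miR-29c-5p, libraries 1 and 3 stand at 6.07 and 6.02, above the sham values, and library 2 at 4.58 stands among them.

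Other miRNAs were set beside the family from lists written with earlier results of these data known. Of 10 tested miRNAs known as enriched in astrocytes, edgeR called 0 at an adjusted p of 0.05 (1 lower at an unadjusted p under 0.05), as did DESeq2 and limma-voom, and 7 had negative log2 fold changes with a median of −0.25. miR-23b-3p of that list measured 2265 ± 192 CPM in sham and 1237 ± 418 CPM in I/R libraries, without overlap, and is the 1 with an unadjusted p under 0.05. Of the 10, 2 did not overlap between the groups, the other being miR-23a-3p. Over all 440 tested miRNAs, 51 (11.6%) had all I/R values below sham and 243 (55.2%) had negative log2 fold changes. At an unadjusted p under 0.05, edgeR gave 28 of 440 (6.36%) as lower. The more abundant miR-143-3p measured 39285 ± 7586 and 31321 ± 8785 CPM, and miR-27b-3p 6368 ± 700 and 7576 ± 1892 CPM, both with overlap. miR-27a-3p, from a paralogous cluster, measured 1750 ± 152 and 2452 ± 817 CPM. Of 5 miRNAs known to rise as neurons mature, 0 passed with any of the 3 tools (edgeR gave 0 at an unadjusted p under 0.05 too), 4 were negative and the median was −0.31. Of these 5, 2 had all I/R values below sham, beside the 11.6% of all tested miRNAs (55.2% of all were negative). They were miR-128-3p, at 8160 ± 420 and 5860 ± 1401 CPM, and miR-138-5p, at 1695 ± 203 and 1331 ± 161 CPM. miR-132-3p measured 4566 ± 552 and 3757 ± 737 CPM with overlap (SD, n = 3 each).

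The summed levels of 4 marker lists also set I/R libraries 1 and 3 apart from sham and from library 2, each largely through few members. The sums of the other cell type lists did not. Neuron-enriched miRNAs summed to 110356 to 125846 CPM in sham and to 116503, 104272 and 106892 CPM after I/R. Those of endothelium and vessel wall summed to 35185 to 49835 CPM and to 45231, 34726 and 26815 CPM. Choroid plexus and ependyma miRNAs summed to 3064 to 3709 CPM and to 3859, 4205 and 5818 CPM. The 10 astrocyte-enriched miRNAs summed to 161234 to 203301 CPM in sham and to 74269, 180437 and 70560 CPM in I/R libraries 1, 2 and 3. This sum was mostly miR-26a-5p, at 114840 ± 17421 CPM in sham and 13990, 130209 and 24260 CPM in those libraries. Its split followed that miRNA. miR-143-3p, the next in level, was at 40601, 30227 and 23134 CPM there and did not share it. The 6 tested miRNAs of microglia and leukocytes, none of them at 0 but miR-223-3p down to 0.623 CPM in I/R library 2, summed to 3071 to 3745 CPM in sham and to 14098, 2687 and 10404 CPM in libraries 1, 2 and 3. This sum was mostly miR-146a-5p, at 13359, 2268 and 9874 CPM in those libraries. The 4 oligodendrocyte-enriched miRNAs summed to 1149 to 1203 CPM in sham and to 2704, 1167 and 1773 CPM after I/R. Most of this difference was miR-219a-2-3p, at 600 ± 48.1 CPM in sham and 1986, 578 and 1114 CPM after I/R. miR-219a-5p of that list had a log2 fold change of −0.060. The 4 tested red blood cell miRNAs summed to 483 to 544 CPM in sham and to 826, 533 and 702 CPM. Here the means of miR-486a-5p (98.2 and 198 CPM) and miR-486b-5p (101 and 200 CPM) rose. That of miR-451a, the highest of the 4 in sham, fell from 300 to 266 CPM, and miR-144-3p was at 21.8 and 22.3 CPM. The part of these lists in the values of miR-29c-5p and in the arm ratio of Mir29c was not tested.

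Other miRNAs known to act on the same kinds of target did not share one direction. Of 12 with known BH3-only targets, such as members of the miR-17 group and miR-221 and miR-222, 5 had negative and 7 positive log2 fold changes, with a median of 0.080. With edgeR, DESeq2 and limma-voom 0 of them passed, and edgeR's unadjusted p was under 0.05 for 0. miR-222-3p measured 2388 ± 223 and 2730 ± 882 CPM. Of 6 with known matrix or fibrosis targets 3 were negative and 3 positive, with a median of 0.083 and 0 called by the 3 tools (1 higher at an unadjusted p under 0.05 by edgeR). The highest of these in mean level, miR-30a-5p, measured 103627 ± 20141 and 122392 ± 21802 CPM. miR-21a-5p, known for promoting fibrosis, measured 7195 ± 988 and 12219 ± 5399 CPM (SD, n = 3 each).

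Among 396 tested miRNAs outside the family with a mean of at least 10 CPM, the profiles most like that of each guide over the 6 libraries were taken by the root-mean-square difference of centred log2 CPM. For miR-29a-3p these were miR-31-3p (0.069), miR-127-5p (0.070), miR-98-5p (0.073), miR-139-5p (0.075) and miR-181d-5p (0.095). For miR-29b-3p they were let-7d-5p (0.056), miR-491-5p (0.089), miR-127-5p (0.098), miR-1843b-5p and miR-341-3p (both 0.10). For miR-29c-3p they were miR-145a-5p (0.061), miR-144-3p (0.062), let-7c-5p (0.091), miR-24-3p (0.093) and miR-106b-5p (0.095). These are the smallest of 396 values, whose medians were 0.40, 0.36 and 0.32 for miR-29a-3p, miR-29b-3p and miR-29c-3p. Between the guides themselves the difference was 0.14 for miR-29a-3p and miR-29b-3p, 0.25 for miR-29b-3p and miR-29c-3p, and 0.34 for miR-29a-3p and miR-29c-3p. Of the 396, 13 were closer to miR-29a-3p than miR-29b-3p was, and 149 were closer to it than miR-29c-3p was. For miR-29b-3p, 19 were closer than miR-29a-3p and 103 closer than miR-29c-3p. For miR-29c-3p, 207 were closer than miR-29a-3p and 121 closer than miR-29b-3p. All points share the same 6 libraries and their scaling.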

How the data were processed

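Sequencing of small RNA was analysed for 3 sham and 3 ischemia-reperfusion (I/R) libraries of mouse brain, grouped by sample title. Per the labels, RNA was extracted with TRIzol, and the NEBNext small RNA kit, which ligates adapters to both ends, made the libraries. The submitters' processing notes name cutadapt and Bowtie. The sources used here give neither versions nor the build or the reference of mature sequences. Each deposited table lists raw read counts, whole numbers without normalization, by mature name. No pair of libraries within a group agreed within sampling noise (lowest chi-square over its degrees of freedom 50.3).

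Repeated names were reduced to the row with the highest total. The quasi-likelihood test of edgeR 4.0.16 (R 4.3.3) was run after filterByExpr (minimum count 10, minimum total 15) and TMM scaling, with group as the only term and Benjamini-Hochberg adjustment over 440 miRNAs at 0.05. CPM divide counts by TMM-scaled library size; 3 counts, the limit that a count of 0 allows, are 1.45 to 2.05 CPM (counting error only). Standard errors come from the F statistic. Ratios used counts plus 0.5, with the standard error from both groups' SD. limma 3.58.1 and DESeq2 1.42.0 gave alternatives. The fits were tested on simulated counts with the same spread setting for all miRNAs and both groups. The wider spread of the I/R libraries was not simulated. The members, lists, target genes and the rule for the named miRNAs (any tested member of the astrocyte and neuron maturation lists, up to 4 of the highest mean level in each other list, and the 5 profiles most like each guide) were chosen with earlier results of these data known. Sequences are from RefSeq (GRCm38.p6) and GENCODE vM21, matched by name.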

Additional observations from a re-analysis of the deposited data

How the results depend on the processing

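No paired analysis was possible because the labels name no pairs of sham and I/R libraries. With other scalings, filters, tools and treatments of repeated rows, 0 of 6 members passed. With single libraries left out, 0 to 1 passed, the 1 being miR-29c-5p without I/R library 2. The count over all miRNAs, 10 with all libraries, was 4 with RLE, 6 without the 5 most abundant miRNAs in the scaling and 26 with DESeq2. It ranged from 0 (without sham library 6, or I/R library 3) to 100 (without library 2) with single libraries left out. miR-29c-3p changed sign. Its log2 fold change was 0.031 with RLE, 0.019 with upper-quartile scaling, 0.039 without the 5 most abundant miRNAs and 0.055 with the miR-183 and miR-200 groups left out of the scaling. It was 0.013 without a filter, 0.020 with a filter of 10 CPM in 3 libraries, 0.032 with DESeq2, 0.050 with repeated rows summed and 6.4e-04 with all rows kept, the last added after seeing the data. With single libraries left out it ranged from −0.078 to 0.068, that of miR-29a-5p from −0.19 to 0.013, that of miR-29a-3p from −0.54 to −0.13, that of miR-29b-2-5p from −0.47 to −0.16 and that of miR-29c-5p from −1.38 to −0.62. The cause was not tested. Of the log2 ratios, that of miR-29a-3p to miR-29b-3p ranged from −0.091 to 0.15 and that of miR-29b-3p to miR-29b-2-5p from −0.25 to 0.18. The other 6 ratios kept their sign with each library left out, though 4 of them moved by over 1.5 times without 1 of the I/R libraries. Their ranges were −0.64 to −0.16 for miR-29a-3p over miR-29c-3p, −0.39 to −0.15 for miR-29a-3p over miR-29a-5p, 0.70 to 1.44 for miR-29c-3p over miR-29c-5p and 0.12 to 0.48 for miR-29a-5p over miR-29b-2-5p. Low counts limit miR-29b-2-5p, for which counting noise alone gives a coefficient of variation of 16.4% in sham.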

Other observations

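The profiles most like that of miR-29c-5p were looked up after its values were seen. They were those of miR-758-3p (root-mean-square difference of centred log2 CPM 0.16), miR-379-3p (0.17), miR-23b-3p (0.20), miR-193b-3p and miR-331-3p (both 0.21), each with a log2 fold change between −1.16 and −0.79. Profiles picked as alike over the same libraries must have like fold changes, so these are not independent evidence. The distances were larger than for any guide.

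Of the 5 genes of DNA methylation and demethylation looked up as known targets, all held the 7-letter seed match in their longest 3′ untranslated region. Tet3 held it 8 times, Tet1 7 times, Dnmt3a and Tet2 5 times each and Dnmt3b once, in regions with a median length of 5669 bases against 961 over all genes.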
